A study of Mus musculus with 4 samples.

Results

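The 10 genes described here encode the core of the mitochondrial pathway of apoptosis, namely the BH3-only proteins *Bbc3*, *Pmaip1*, *Bid* and *Bcl2l11*, the pore-forming effectors *Bax* and *Bak1*, the guards *Bcl2*, *Bcl2l1* and *Mcl1*, and the apoptosome gene *Apaf1*. Their p53 peaks were those whose centre lay within 50 kb of any annotated transcription start site (TSS) of the gene. Of the 7384 p53 peaks listed for the series, 16 met this rule, and they fell at 9 of the 10 genes. *Bcl2* had none.

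ChIP-Seq recovers the DNA bound by a protein with an antibody and sequences it. Ba/F3 cells gave a p53 library without treatment and a further one taken 3 h after irradiation (IR) with 3 Gy, and HPC7 cells gave 1 without treatment, so each condition had 1 library. A further library, for the histone mark H3K27ac in irradiated Ba/F3 cells, was not analysed here. Ba/F3 is a mouse B cell progenitor line that grows on interleukin-3, and HPC7 is a mouse blood progenitor line with several fates open to it, obtained by forcing embryonic stem cells to express the transcription factor LH2. Both lines have wild-type p53, and both stably carried triple-FLAG-tagged murine MYSM1 under puromycin selection, the untreated cells included. The deposited list gives a position and a number for each peak, with no signal, count or p-value of any library, so the depth is unknown here and no difference between conditions could be tested. The number is the place of the peak in the order of fold change of p53 binding after IR, with 1 for the largest rise. The names Group I, Group II and Group III mark peaks with higher, little changed and lower binding after IR, and each is a difference between single libraries.

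In mitochondrial apoptosis, BH3-only proteins bind the guards of the BCL2 family and free or activate BAX and BAK1, which then open the outer membrane of the mitochondrion. Cytochrome c escapes through these pores and assembles with APAF1 into the apoptosome, which activates caspase-9. p53 is known for switching on several of these genes after DNA damage, and blood progenitors are among the cells most prone to die in this way after irradiation.

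Sequences within and beside the peaks are shown before the distances, and a match to a motif is a description of the sequence. p53 binds a 20-base consensus of a pair of 10-base half-sites, each with a fixed C and G around an A/T pair. A site was counted within 100 bp of the peak centre when it had at most 3 mismatches, no spacer between the half-sites and both C and G kept in each half-site. All sequences are from the plus strand of the mm9 genome and run 5′ to 3′, with the half-sites in capitals. The following are the 100 bp peaks of the sites with 1 mismatch, at *Bcl2l1* and *Bcl2l11*, and of a site with 2, at *Bid*. The sites at *Bax* and *Pmaip1* also had 2 mismatches.
Bcl2l1 intron, chr2:152618329-152618428: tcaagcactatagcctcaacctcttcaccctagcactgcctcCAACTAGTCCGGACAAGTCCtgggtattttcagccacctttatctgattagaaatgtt
Bcl2l11 intron, chr2:127959779-127959878: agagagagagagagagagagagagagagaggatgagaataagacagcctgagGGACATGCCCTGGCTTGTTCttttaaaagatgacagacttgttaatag
Bid upstream, chr6:120871790-120871889: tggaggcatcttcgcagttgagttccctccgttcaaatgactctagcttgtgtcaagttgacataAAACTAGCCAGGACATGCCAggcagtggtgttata
At *Bax* and in the second intronic peak of *Bcl2l11*, the site alone is given, with 2 and 3 mismatches.
Bax site, chr7:52721944-52721963: CGACAAGCCCGGGCCTGCCC
Bcl2l11 second intronic site, chr2:127977570-127977589: GGACATGTGCAGGCATGAGT

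Neither peak of *Bbc3* held a site without a spacer, and they are shown because both held one when a spacer of up to 13 bases was allowed. The intronic peak had half-sites 1 base apart with 1 mismatch in all, and the upstream peak had half-sites 9 bases apart with 3 mismatches.
Bbc3 intron, chr7:16901129-16901228: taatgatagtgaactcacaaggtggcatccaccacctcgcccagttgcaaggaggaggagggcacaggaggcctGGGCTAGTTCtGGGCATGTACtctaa
Bbc3 upstream, chr7:16894001-16894100: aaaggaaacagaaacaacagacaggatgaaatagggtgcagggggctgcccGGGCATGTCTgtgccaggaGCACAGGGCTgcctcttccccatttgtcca
The intronic *Bid* peak and the *Mcl1* peak each had a spaced match with 3 mismatches and a spacer of 3 bases, which for *Mcl1* lay just outside the 100 bp peak.
Bid intron, spaced match, chr6:120864535-120864557: GAGCAGGAGTtggAGACAAGTCT
Mcl1 upstream, spaced match, chr3:95454799-95454821: GAACATGCCTggaAGCCCAGTTA

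The peaks at the promoters of *Bcl2l11* and *Apaf1* had no p53 site with or without a spacer. They are shown for their GC-rich words, with matches to the SP1 word GGGGCGGGG in capitals (either strand, at most 1 mismatch, matches may overlap). The *Bcl2l11* peak held 4 such matches. The part of the *Apaf1* peak upstream of the first TSS, 89 bases long, held 1, with 2 matches to the motif of NRF1 (either strand, at most 1 mismatch) not marked.
Bcl2l11 promoter, chr2:127951645-127951744: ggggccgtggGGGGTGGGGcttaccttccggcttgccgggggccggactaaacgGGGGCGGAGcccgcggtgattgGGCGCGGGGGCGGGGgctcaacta
Apaf1 promoter, chr10:90545516-90545604: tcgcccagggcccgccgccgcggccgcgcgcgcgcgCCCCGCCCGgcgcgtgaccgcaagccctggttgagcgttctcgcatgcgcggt

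The 4 BH3-only genes held 9 of the 16 peaks. *Bbc3* (chr7:16894965-16903554, plus strand, 3 transcripts), which encodes PUMA, a BH3-only protein that binds every guard, had 2 peaks. The upstream peak lay 915 bp before the first TSS, had number 6710 and was in Group II. The intronic peak lay 2312 bp past the nearest TSS and 6213 bp past the first, in intron 3 of the 4-exon transcript and intron 1 of the 2-exon transcript. Its number was 3798 and its Group was I. The peak with the closer match to a p53 site was thus the one inside the gene, and the pair lay 7128 bp apart.

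*Bid* (chr6:120841948-120866871, minus strand, 5 transcripts) encodes a BH3-only protein that is cut by caspase-8 and links death receptors to mitochondria. It had 2 peaks, both in Group I. The upstream peak, 4968 bp before the nearest TSS, had number 856 and a site with 2 mismatches centred 25.5 bp from the peak centre. The other, number 1911, lay 2237 bp past the nearest TSS in intron 1 of 4 transcripts. The 7260 bp between them spanned the first exon of the gene.

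*Bcl2l11* (chr2:127951774-127988283, plus strand, 8 transcripts) encodes BIM, the BH3-only protein best known for the death of lymphoid cells deprived of growth factor. It had 4 peaks, the most of any member. The farthest, 41362 bp before the first TSS and within the neighboring gene *Acoxl*, had number 256, the earliest place in the order among all 16, and no site. The promoter peak, 80 bp before the first TSS, had number 6792 and a GC content of 72.5% over the 200 bp around its centre. In the introns, the peak 5961 bp past the nearest TSS had number 6668 and a site with 1 mismatch, and the peak 23711 bp past it had number 4729 and a site with 3 mismatches. The promoter peak and the nearer intronic peak were in Group II, and the other 2 were in Group I. The 4 peaks of 1 gene were thus spread over nearly the whole order.

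The effectors had 1 peak each. *Bax* (chr7:52717065-52722268, minus strand, 2 transcripts), whose product forms pores in the outer membrane, had a peak 190 bp past the nearest TSS and 313 bp past the first. It lay in exon 1, within the 5′ UTR, of one transcript and in intron 1 of the other. Its number was 6512, in Group I, and the site with 2 mismatches was centred 1.5 bp from the peak centre, with a GC content of 71.5% around it and 1 NRF1 match. *Bak1* (chr17:27156755-27165954, minus strand, 5 transcripts), the other pore-forming effector, had its peak 27003 bp past the nearest TSS, beyond the 3′ end of the gene and inside *Ggnbp1*. The nearest protein-coding TSS to that peak was of *Ggnbp1*, at 22230 bp. It had number 6575, in Group I, and no site with or without a spacer.

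Of the guards, *Bcl2l1* (chr2:152593052-152657464, minus strand, 10 transcripts), which encodes BCL-XL, had 1 peak, 35893 bp past the nearest TSS and 39086 bp past the first, in an intron of 4 transcripts. Its number was 5631, in Group I, and its site with 1 mismatch was centred 2.5 bp from the peak centre. *Mcl1* (chr3:95462643-95467099, plus strand, 1 transcript), which encodes a short-lived guard that blood stem cells depend on, had 1 peak, 7761 bp before the TSS, with number 1972, in Group I. *Bcl2* (chr1:108434755-108610851, minus strand, 1 transcript), the founding member of the family, had no peak within the limit. The nearest, number 2578 of Group I, lay 90063 bp past the TSS in an intron of this gene of 176097 bp.

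*Apaf1* (chr10:90452056-90545515, minus strand, 8 transcripts) encodes the scaffold of the apoptosome, and it had 3 peaks. A pair of them lay 267 bp apart at the promoter. The peak 39 bp before the first TSS had number 6921 and was the only one of the 16 in Group III, with a GC content of 76.0%. The other was 228 bp past the first TSS, in exon 1 within the 5′ UTR of 4 transcripts and 113 bp before the nearest TSS, and had number 2255 in Group I with a GC content of 71.5%. Neither held a p53 site, and although they were neighbors, their binding was listed as changing in opposite directions after IR. The third, number 1963 in Group I, lay 41843 bp before the first TSS and 554 bp before a TSS of *Slc25a3*, a mitochondrial phosphate carrier, to which it was nearer.

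*Pmaip1* (chr18:66618258-66625204, plus strand, 1 transcript) encodes NOXA, a BH3-only protein that binds MCL1. It had 1 peak, 11443 bp past the TSS and downstream of the gene, with number 4472 in Group I. The site in that peak, at chr18:66629658-66629677, had 2 mismatches. A match with as many mismatches lay 164 bp before the TSS, at chr18:66618084-66618103, and had no peak, the nearest peak centre being 11607 bp away.

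**Figure D1:**
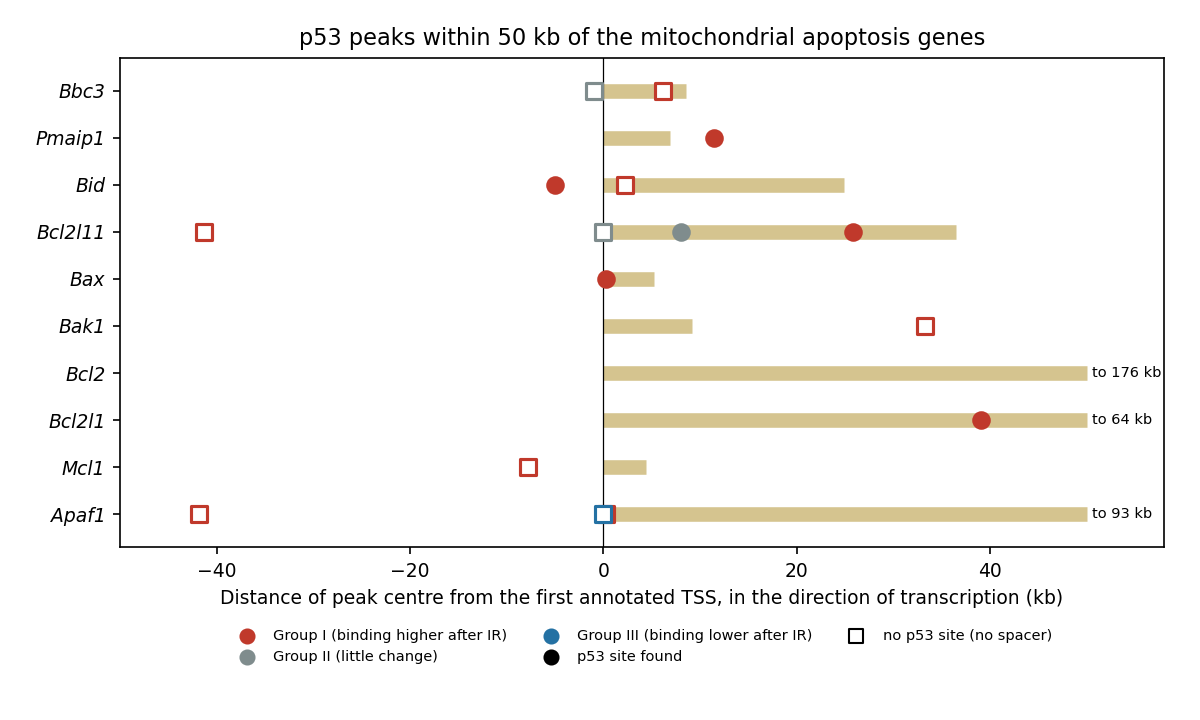
Peaks of each gene by distance of the peak centre from its first annotated TSS in the direction of transcription (kb), with the gene body as a bar drawn up to the limit of 50 kb. Filled circles have a p53 site without a spacer, open squares have none, and color gives the Group. Of the 16 peaks, 7 lay inside their own gene, and the pair at the *Apaf1* promoter overlaps at this scale.

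With the limit of 50 kb, 9 of the 10 core genes had a peak, beside 40.4% of the 22367 protein-coding genes. Within 10 kb the count was 6 of 10, beside 15.6% of all genes, and within 1 kb it was 4 of 10, beside 6.13%. The 4 genes with a peak within 1 kb were *Bbc3*, *Bcl2l11*, *Bax* and *Apaf1*. At least 2 peaks within 50 kb were found at *Bbc3*, *Bid*, *Bcl2l11* and *Apaf1*, that is at 4 of 10, against 14.3% of all genes. *Bcl2l11* alone had 4, as did or exceeded 1.14% of all genes. There were 1.60 peaks per gene of the core and 0.604 per protein-coding gene. The core includes genes already known as p53 targets, and genes differ in length and number of TSSs, so these shares are a description. At the edge of the rule, the farthest peak inside was the distal *Apaf1* peak at 41843 bp, and the nearest outside lay 67371 bp from a *Bid* TSS.

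**Figure D2:**
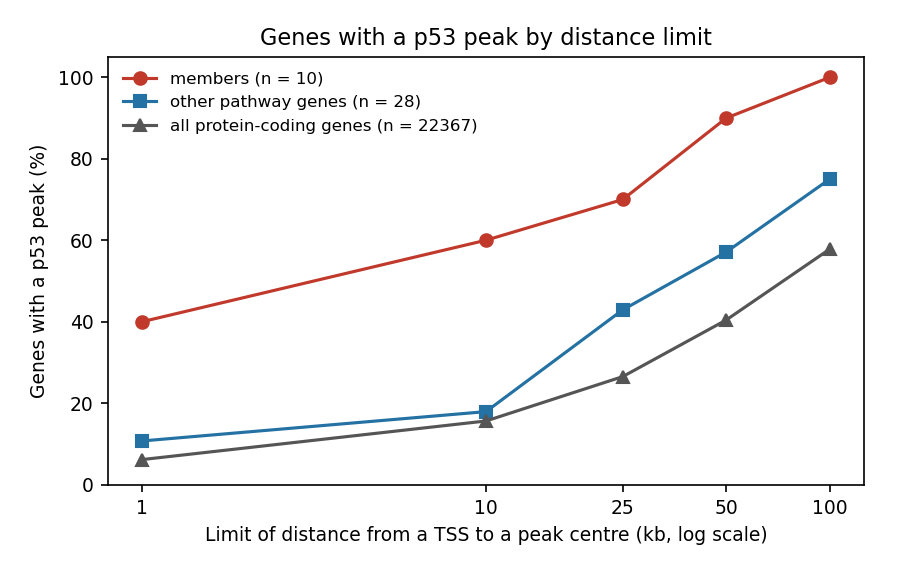
Percentage of genes with a p53 peak (y axis) against the limit of distance from a TSS to a peak centre (kb, log scale) for the 10 core genes, 28 other pathway genes and 22367 protein-coding genes. At 1 kb the shares were 40.0%, 10.7% and 6.13%, and at 100 kb they were 100%, 75.0% and 57.8%.

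In the order of binding change, the numbers of the 16 peaks ran from 256 (*Bcl2l11*, distal) to 6921 (*Apaf1*, promoter). Their median was 4600.5, with an interval from 1963 to 6668 from the order statistics, at a level of at least 95%. The interval counts the 16 peaks as separate, although several lie at the same gene, so it is a description and no test. The median of all peaks, 3692.5, lay inside it. With the limit at 100 kb the median was 2578, on the other side of that of all peaks. The last stretch of the order, with 10.0% of all peaks, held 4 of the 16, namely the upstream *Bbc3* peak, the promoter and nearer intronic peaks of *Bcl2l11* and the upstream promoter peak of *Apaf1*. Of these, 3 lay within 1 kb of a TSS and had no site, and the intronic *Bcl2l11* peak had one with 1 mismatch. Within the promoters, *Bax* and the second *Apaf1* peak were in Group I.

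**Figure D3:**
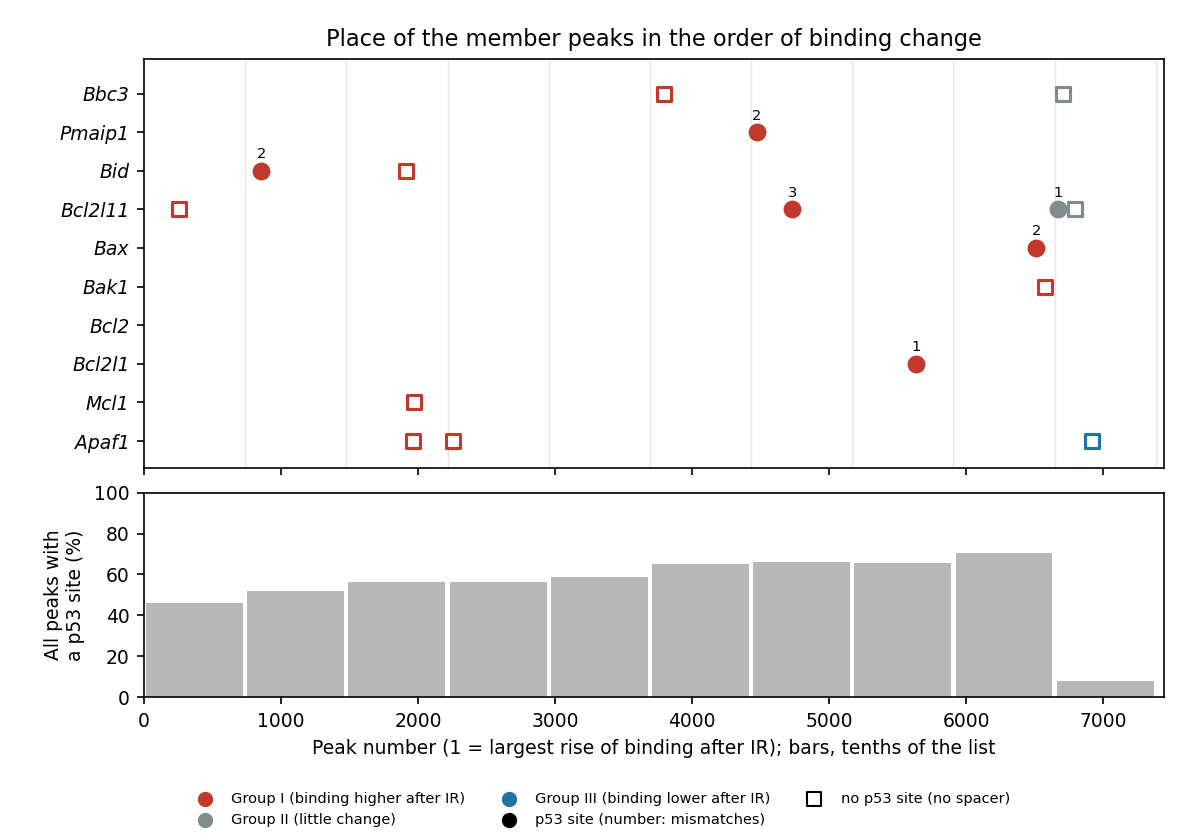
Upper panel, the 16 peaks by peak number (x axis, 1 for the largest rise of binding after IR) and gene, with color for the Group, circles for peaks with a p53 site and its number of mismatches, and open squares for peaks without. Lower panel, the percentage of all 7384 peaks with a site in each of 10 equal stretches of the list, which was 70.5% in the stretch before the last and 8.12% in the last, where 4 of the 16 peaks lie.

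A p53 site without a spacer was found in 6 of the 16 peaks (37.5%, 95% Wilson interval 18.5% to 61.4%, counting error over peaks only), and in 54.4% of all peaks. The 6 were at *Pmaip1*, *Bid*, *Bcl2l11* (2 peaks), *Bax* and *Bcl2l1*. With a spacer of up to 13 bases allowed, the count was 10 of 16, and the share of all peaks was 72.7%. The 4 that were added were both *Bbc3* peaks, the intronic *Bid* peak and the *Mcl1* peak. None of the 16 peaks held an exact match without a spacer, and 6.15% of all peaks did. In windows 10 kb from the same peaks, a site occurred for 1 of the 16 and for 1.02% of all. These windows lay toward lower genome coordinates, whatever the strand of the gene.

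Promoter peaks and distal peaks were also counted apart. Within 1 kb of a protein-coding TSS lay 6 of the 16 peaks, beside 17.3% of all peaks (for the distal *Apaf1* peak the TSS was that of *Slc25a3*), and of these 6 the *Bax* peak alone had a site. Over the whole list 17.6% of such peaks had one. Farther away, 5 of the 10 remaining core peaks and 62.2% of all had one. The SP1 word was present in 2 of the 16 (the *Bcl2l11* and upstream *Apaf1* promoter peaks) and in 15.4% of all peaks, and the NRF1 motif in 2 of the 16 (*Bax* and the same *Apaf1* peak) and in 3.30% of all. None of the 16 had a sequence resembling another peak of the list, as 22.5% of all peaks did. The median GC content was 49.5% for the 16 and 49.0% for all.

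Matches to the consensus were also counted from the genome, regardless of peaks. Within 50 kb of a TSS of the 10 genes there were 4 matches with at most 1 mismatch, and 2 of them, in *Bcl2l11* and *Bcl2l1*, lay within 100 bp of a peak centre. Over the genome 40.2% of such matches did. The remaining ones are shown because they had no peak.
Apaf1 exact match, chr10:90481411-90481430: GAGCAAGTTCAAGCTTGTCT
Bcl2 match with 1 mismatch, chr1:108577074-108577093: GGACATGTTCTAACTTGCTT
The *Apaf1* match lay inside the gene, 18264 bp from the nearest TSS, with the nearest peak 63866 bp away. Of the 645 exact matches in the genome, 71.5% were at a peak. The *Bcl2* match lay inside the gene 33768 bp past the TSS, with the nearest peak 56295 bp away, and 35.2% of genomic matches with 1 mismatch were at a peak. With 2 mismatches, 3 of 12 matches near the core genes were at a peak, those of *Pmaip1*, *Bid* and *Bax*, beside 1891 of 21007 over the genome.

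Beyond the core, 28 other genes of the pathway were examined, among them further BH3-only genes, guards and outer membrane channels. A peak lay within 50 kb of 16 of them (57.1%), beside 40.4% of all protein-coding genes, and within 10 kb of 5 (17.9%), beside 15.6%. The share within 10 kb was thus close to that of all genes. The 5 genes were *Bmf*, a BH3-only gene (186 bp before a TSS, number 4679), *Bnip3*, a mitophagy receptor (338 bp before, number 6885), *Bcl2l13*, a BCL2 relative (6033 bp before, number 2315), and the outer membrane channels *Vdac1* (9524 bp before, number 4881) and *Vdac3* (84 bp before, number 7097). The *Bcl2l13* and *Vdac1* peaks had sites with 2 mismatches, and the other 3 had none. The *Bcl2l13* peak is also the nearest outside the limit for *Bid*.

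Over all genes, the study asked which had p53 binding nearby and also changed in expression after IR. As a positive control for another gene, it also measured p53 at the *Bbc3* promoter in Ba/F3 cells by quantitative PCR. Its RNA-Seq was of blood stem and progenitor cells from irradiated mice, not of these lines, and was not analysed here. The study placed *Bbc3*, *Pmaip1*, *Bax* and *Apaf1* in its Cluster A, the genes raised after IR in wild-type but not in p53-knockout cells. Its list of changed genes, as held here, does not include the remaining members. That list took only genes past cutoffs of fold change and false discovery rate, so absence from it does not mean unchanged expression. For its putative p53 targets, the study asked for a peak within 10 kb. The 4 Cluster A genes had 7 of the 16 peaks, and the other 6 had 9. Within 50 kb, all 4 Cluster A genes and 5 of the other 6 (*Bid*, *Bcl2l11*, *Bak1*, *Bcl2l1* and *Mcl1*) had a peak, beside 40.4% of all protein-coding genes. Within 10 kb, 3 of the 4 (*Bbc3*, *Bax* and *Apaf1*) and 3 of the other 6 (*Bid*, *Bcl2l11* and *Mcl1*) had one, beside 15.6%. Within 1 kb, the same 3 Cluster A genes and 1 of the other 6 (*Bcl2l11*) had one, beside 6.13%. The difference between the 4 and the 6 genes was not tested.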

How the data were processed

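For 1 library per condition, chromatin was precipitated with an antibody against p53 (clone 1C12). The authors mapped reads to mm9 with Bowtie 1.0.0 and called peaks with MACS 1.4.1 against input DNA of the same cells. They deposited 1 list of positions and peak numbers, each peak 100 bp wide. How peaks of different libraries were merged is not given in the sources used here, and the deposited list does not say in which library a peak was called. The study's own table of peaks has read intensities and marks peaks shared with HPC7 cells, and those values were not used here. The peak number was checked against the rows of the study's supplementary tables held here, which also gave the Groups. A peak between rows of 1 Group was given that Group.

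Distances ran from the peak centre to every TSS of GENCODE M1 on the same build (NCBIM37). Negative distances are upstream. Sites were searched with Python 3.11.15, NumPy 2.4.6 and pysam 0.24.0, and similar sequences with BLAST+ 2.17.0 (at least 80% identity over 100 bp, e-value 1e-10). On simulated data, all 8000 planted sites were found, and 3 of 1000 random windows held one. The planted sites met the search rule by design, so their recovery checks the code alone. The random windows had equal shares of each base, so they do not give the rate in genomic sequence. The members and the pathway list were chosen with earlier results of these data known. With no replicates and no signal, no test was made. The genes named were all members, and other pathway genes with a peak within 10 kb. *Xiap*, and genes that neighbor or hold a peak, were named after their values were seen. Alternatives were other distance limits, TSSs of protein-coding transcripts, peaks nearest to the gene alone, the first 3000 peaks, merged neighbors and other site settings.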

Additional observations from a re-analysis of the deposited data

How the results depend on the processing

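The values above describe 1 deposited list, with no depth, replicates or signal, so neither their error between cultures nor false or missed peaks could be assessed. No paired analysis was possible because there was 1 library per condition. Of 33 alternative values, 8 moved, 0 reversed and the other 25 stayed within a tolerance, which was 1.5 times for a count and the 95% interval of the reported value for a share or median. These intervals are wide. The median at 100 kb counted as unmoved, although it crossed to the other side of that of all peaks. Leaving out peaks that resemble others could not change the values of the 16 peaks, since none of them did. With the limit at 10 kb, the core genes held 10 peaks, and 5 other pathway genes had one. At 100 kb the core held 27 peaks. With the first 3000 peaks alone, 4 of 10 core genes (6 peaks), 9 of 28 other pathway genes and 20.0% of all protein-coding genes had one. Counting peaks by their nearest gene alone left 8 of 10 core genes, 7 of 28 other pathway genes and 19.6% of all. Allowing a spacer raised the share of peaks with a site to 62.5%. The median peak number ran from 2578 (100 kb) to 5155 (10 kb), and its side of the median of all peaks depended on the limit. The share of consensus matches at a peak fell from 50.0% to 31.2% when 2 mismatches were allowed.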

Other observations

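Between the limit of 50 kb and 100 kb, 11 further peaks lay near the core genes. They were near *Bbc3* (3), *Bid* (2), *Mcl1* (2), *Bcl2l11*, *Bax*, *Bcl2* and *Apaf1* (1 each). The nearest protein-coding TSS belonged to a core gene for 2 of the 11, the intronic *Bcl2* peak and a peak 71947 bp upstream of *Bcl2l11* (number 2221). The peak near *Bax* (number 7144, 70907 bp from its TSS) was in Group III and was nearest to *Snrnp70*.

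Among the other pathway genes, the peak 41516 bp upstream of the caspase inhibitor *Xiap* had an exact match to the p53 consensus, which none of the 16 peaks at the core genes had. It had number 6599, close to that of the *Bak1* peak (6575). The peak at the *Vdac3* promoter was in Group III, as was the upstream *Apaf1* promoter peak, and held 5 NRF1 matches with a GC content of 81.0%.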
